A study of Drosophila melanogaster with 4 samples.

Results

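The regions described here are the stretches bound by HP1b in the last 2 Mb of assembled sequence at the centromeric ends of chromosome arms 2L, 3L, 3R and X. A region was a member when its midpoint lay above position 21011544 on 2L, 22543557 on 3L or 20422827 on X, or at or below 2000000 on 3R (FlyBase release 5). The series-wide list of the authors held 632 members among 9130 regions (168 on 2L, 215 on 3L, 104 on X and 145 on 3R). The list of ChIP replicate 1 held 292 members among 5248 regions, and that of replicate 2 held 231 among 4633. The 4 windows make up 8.17% of the length of these arms and held 9.91% of their series-wide regions, 7.41% of their replicate 1 regions and 6.56% of their replicate 2 regions.

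HP1b binding in Drosophila melanogaster was mapped by ChIP-seq, in which DNA fragments precipitated with an antibody to a chromatin protein are sequenced. All 4 samples came from whole wild-type embryos of the Oregon-R laboratory strain, aged 14 to 16 h and fixed with formaldehyde. Antibody Q4114 was used for the 2 ChIP libraries, and each was set against the Input library of its number, sheared chromatin DNA without antibody selection. The deposited data are lists of enriched regions with 1 score each, without read counts, so the depth behind a region is unknown. Since separate collections of embryos are not stated in the labels, the replicate spread may be technical. With a single ChIP group of 2 replicates there was nothing to permute and no test was run. Differences are set beside the spread between the replicates and beside the other parts of the same arm. In whole embryos, fewer cells with HP1b at a site and less HP1b per cell cannot be told apart.

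HP1b belongs to the Heterochromatin Protein 1 family, whose chromodomain recognises a methylated lysine in the tail of histone H3 and whose chromoshadow domain pairs the proteins and recruits partners. Its relative HP1a is the founding member and is concentrated in the heterochromatin around centromeres, while HP1b is found in both euchromatin and heterochromatin. Towards the centromere each arm passes from gene-rich euchromatin into compact, repeat-rich heterochromatin, which still holds single-copy genes such as light and concertina on 2L. The assembled arms end inside this heterochromatin, and further sequence assigned to it is held in separate scaffolds (2LHet, 3LHet, 3RHet and XHet). The genes at the positions below are not named, because an annotation of release 5 was not used here.

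The arms differed in how much of the centromeric 2 Mb was bound. Cover, the percent of bases inside regions, was lower than in the rest of the arm on X, higher on 3R, and within the spread between the replicates on 2L. The difference from the rest of the arm, averaged over the replicates, was -6.52 percentage points on X (± 0.191, SD, n = 2) and 2.12 points on 3R (± 0.170, SD, n = 2). It was -2.16 points on 3L (± 1.72, SD, n = 2) and -0.175 points on 2L (± 0.949, SD, n = 2). On 2L the replicates differed in sign, at 0.496 points in replicate 1 and -0.846 in replicate 2. On 3L both were negative, at -0.946 and -3.38 points. In the series-wide list the centromeric windows of 2L and 3L were instead covered more than the rest, by 5.74 and 7.22 points. For 3R and X this list had the sign of the replicates, with 3.00 and -8.69 points. The 3R difference depended on the window, with 0.396 points for 1 Mb and 1.35 points for 3 Mb, and was 0.544 points when only the 50% of regions with the highest scores were used. The X difference was -7.40 points for 1 Mb and -4.25 points for 3 Mb.

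**Figure D1:**
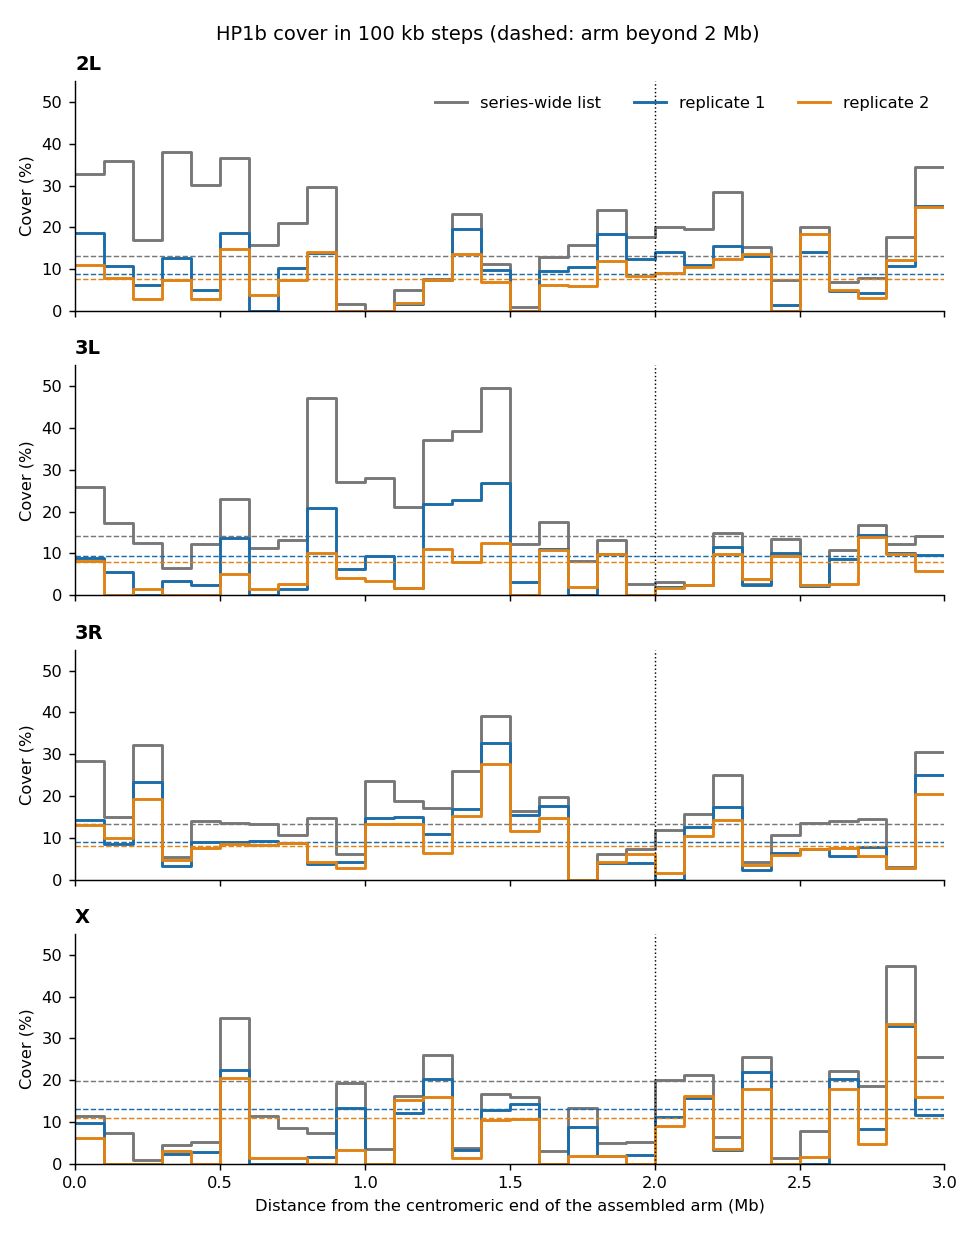
Percent of bases covered by HP1b regions in 100 kb steps (y axis) against distance from the centromeric end of each assembled arm in Mb (x axis), for replicate 1, replicate 2 and the series-wide list. Dashed lines give each list's cover of the arm beyond 2 Mb and the dotted line marks 2 Mb. The series-wide list lies above both replicates in at least 19 of the 20 steps within 2 Mb on each arm. Its cover is high over the last 900 kb of 2L and between 800 and 1500 kb on 3L, where it reaches 49.6% in a single step.

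On X the centromeric end was sparsely bound. Cover of the 2 Mb was 6.41% in replicate 1 and 4.67% in replicate 2 (mean 5.54% ± 1.23, SD, n = 2), while the rest of X had 13.1% and 11.0%. Among the 11 whole 2 Mb windows of the arm, counted from the centromeric end, it was the least covered in replicate 1, in replicate 2 and in the series-wide list (11.0%). The other 10 windows ran from 9.33 to 15.9% in replicate 1 and from 8.57 to 13.4% in replicate 2. There were 24.5 and 18.5 regions per Mb in the replicates, against 50.1 and 45.1 in the rest of the arm.

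Within the X window the cover came in islands. Of the 20 steps of 100 kb, 6 held no bases of replicate 1 regions and 7 none of replicate 2, and 4 were empty in both. Beyond the window 9.31% of the 204 steps were empty in replicate 1 and 6.37% in replicate 2. The most covered step lay 500 to 600 kb from the end, with 22.4% in replicate 1, 20.4% in replicate 2 and 35.0% in the series-wide list. It held 8 regions of each replicate, 6 of the series-wide regions there overlapped both, and 1 of them, at 21887458 to 21894292, was the widest member on X (6835 bp, score 0.705). A second island lay between 1100 and 1300 kb, with 12.0 and 20.3% in replicate 1 and 15.4 and 15.9% in replicate 2. Between these islands the replicates were nearly empty from 600 to 900 kb, at 0, 0 and 1.62% in replicate 1 and 1.33, 1.31 and 0% in replicate 2. The step at 900 to 1000 kb had 13.4% in replicate 1 and 3.3% in replicate 2. Further out, the steps from 1400 to 1600 kb had 13.0 and 14.2% in replicate 1 and 10.6 and 10.8% in replicate 2. The longest stretch without a region of either replicate ran over 346 kb, from 22060030 to 22405874. The last series-wide region, at 22421078 to 22422678, lay 0.95 kb from the end of the arm by its midpoint and was listed in replicate 1 alone.

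On 3R the centromeric end was bound more than the rest. Cover was 11.2% in replicate 1 and 9.97% in replicate 2 (mean 10.6% ± 0.877, SD, n = 2). Beyond the window it was 8.97% and 7.97%. The window ranked 2 of 13 along the arm in each replicate and in the series-wide list (16.4%). It was thus not the most covered window of 3R, where the other 12 ran from 6.22 to 13.0% in replicate 1 and from 5.51 to 12.1% in replicate 2. The excess lay in a pair of 500 kb blocks. At 1000 to 1500 kb from the end cover was 18.0% in replicate 1 and 15.2% in replicate 2, and in the last 500 kb it was 11.7 and 10.9%. The other blocks lay below the rest of the arm, with 6.95 and 6.50% at 500 to 1000 kb and 8.23 and 7.25% at 1500 to 2000 kb.

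The most covered step of the 3R window lay 1400 to 1500 kb from the end, with 32.7% in replicate 1, 27.7% in replicate 2 and 39.1% in the series-wide list. Its 15 series-wide regions included 12 that overlapped both replicates. A step at 200 to 300 kb followed, with 23.4 and 19.3% in the replicates, and held the widest 3R member, at 224692 to 230242 (5551 bp, score 0.974). HP1b regions reached the end of the assembled arm: the first series-wide region spans positions 2 to 1484 and overlapped a replicate 2 region at 3 to 1548, with none in replicate 1. The first 100 kb were covered 14.2% in replicate 1 and 13.0% in replicate 2. A single step, at 1700 to 1800 kb, was empty in all lists, inside a stretch of 134 kb without a series-wide region (1689019 to 1823135).

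On 3L the replicates differed most. Cover of the window was 8.49% in replicate 1 and 4.62% in replicate 2 (mean 6.55% ± 2.73, SD, n = 2), and the rest of the arm had 9.43% and 8.00%. In replicate 2 it was the least covered of the 12 windows of 3L, whose others ran from 5.02 to 11.3%. In replicate 1 it ranked 8, and in the series-wide list, with 21.3%, it ranked 1 above a range of 8.62 to 19.2%. Of the 20 steps, 14 were covered more in replicate 1 and 5 more in replicate 2.

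In the series-wide list the 3L window had a dense block 800 to 1500 kb from the end. Its 7 steps were covered from 21.0 to 49.6%, against 14.1% of the rest of the arm. In replicate 1 they ran from 1.71 to 26.9% (rest 9.43%) and in replicate 2 from 1.68 to 12.5% (rest 8.00%). The steps thus lay on either side of the rest of the arm in each replicate. The most covered step, at 1400 to 1500 kb, had 26.9% in replicate 1, 12.5% in replicate 2 and 49.6% in the series-wide list, and of its 19 series-wide regions 3 overlapped both replicates. Nearer to the end the replicates were sparse: over the last 500 kb cover was 4.12% in replicate 1 and 1.93% in replicate 2. The longest stretch of the 3L window without a series-wide region, 107 kb at 22602341 to 22709399, lay near its outer limit. The last series-wide region, at 24541492 to 24543190, lay 1.22 kb from the end by its midpoint and was in neither replicate. The second widest 3L member, at 24526470 to 24532098 (5629 bp, score 0.920), was in both, although replicate 1 regions covered 80.4% of it and replicate 2 regions 44.1%.

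On 2L the window was covered about as much as the arm in the replicates. Cover was 9.26% in replicate 1 and 6.69% in replicate 2 (mean 7.98% ± 1.82, SD, n = 2). Beyond the window it was 8.77% and 7.54%, and the window ranked 6 and 7 of 11. In the series-wide list it ranked 1, with 18.8% against 8.04 to 17.5% in the other 10. The series-wide excess lay next to the end: the last 1 Mb was covered 25.8% in the series-wide list, 9.59% in replicate 1 and 7.18% in replicate 2. At 1 to 2 Mb the series-wide cover was 11.8%, below the 13.1% of the rest of 2L.

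The 2L window divided at a long empty stretch. No series-wide region lay between 21868363 and 22095691, a gap of 227 kb that begins 916 kb from the end of the arm, and no replicate region lay in a slightly longer stretch of 251 kb. On its centromeric side 9 consecutive steps had series-wide cover from 15.7 to 38.1%. On the far side steps ranged up to 24.2%. A further step, at 1500 to 1600 kb, was empty in both replicates. Close to the end of the arm lay the widest member of all 4 windows, at 22960138 to 22975550 (15413 bp, score 0.860), 43.7 kb from the end by its midpoint. Replicate 1 had 2 regions there covering 90.9% of it, with a best score of 1.05, and replicate 2 had 2 covering 70.6%, with a best score of 0.897. The last series-wide region of 2L, at 22982722 to 22984902 (score 0.439), lay 27.7 kb from the end and was in neither replicate.

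On all 4 arms, the heterochromatin scaffold of the same arm was covered less than the arm beyond 2 Mb in each replicate. The series-wide list differed: it covered 13.6% of 2LHet and 16.7% of 3LHet, above the 13.1 and 14.1% of those arms, but 9.49% of 3RHet and 15.8% of XHet, below the 13.4 and 19.7% beyond 2 Mb. On 2L the mean of the replicates went from 8.15% beyond 2 Mb (± 0.869, SD, n = 2) to 8.39% in the last 1 Mb (± 1.71) and 4.04% on 2LHet (± 1.90). On 3L it went from 8.71% (± 1.01) to 4.81% (± 2.12) and 4.82% on 3LHet (± 1.69). On 3R it went from 8.47% (± 0.707) to 9.01% (± 0.417) and 2.23% on 3RHet (± 0.520), so that the fall on this arm lay between the assembled end and the scaffold. On X it fell within the arm, from 12.1% (± 1.42) to 4.40% (± 1.18), and XHet had 4.90% (± 0.956). The 2LHet and XHet scaffolds are short, 369 and 204 kb, with 8 and 4 regions in replicate 1 and 3 and 6 in replicate 2. How far the scaffolds lie from the assembled ends, and in which order, is unknown here.

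**Figure D2:**
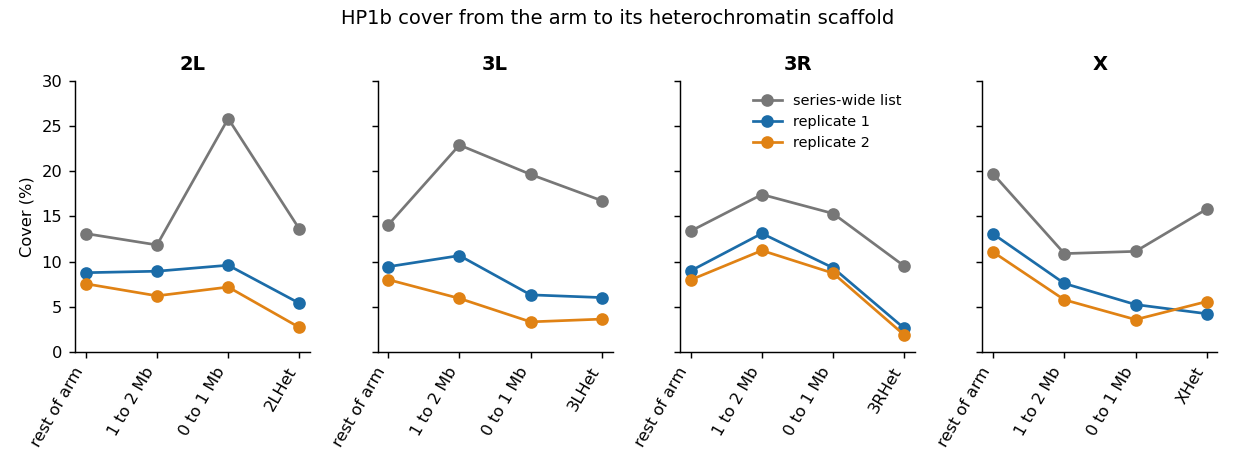
Percent of bases covered by HP1b regions (y axis) in the arm beyond 2 Mb, at 1 to 2 Mb and 0 to 1 Mb from the centromeric end, and on the heterochromatin scaffold of the same arm (x axis), for replicate 1, replicate 2 and the series-wide list. On X all 3 lists are lower within 2 Mb of the end than beyond, while on 2L the series-wide list peaks at 25.8% in the last 1 Mb.

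The step from euchromatin to heterochromatin was sought as the split of the last 3 Mb that leaves the smallest squared deviation of the 100 kb steps from the means of its 2 sides. In the mean cover of the replicates it was weak. The split accounted for 24.0% of the variance between steps on 2L, 25.3% on X, 12.3% on 3L and 12.4% on 3R. On 2L, 3R and X it fell at 2900, 2900 and 2800 kb, beyond the window, next to well covered steps there. The 3L split at 800 kb, with 3.42% towards the end and 7.79% away from it, was found in each replicate. In replicate 2 alone the 3R split lay at 1700 kb. Moving the inspected span from 3 to 2 Mb moved the split to 1800 kb on 2L, 1700 kb on 3R and 500 kb on X.

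The same split was then made of a difference between the lists, which is not a step in replicate cover. On 2L and 3L a sharper split appeared in the bases that the series-wide list held and neither replicate did. On 2L they covered 15.7% of the last 900 kb and 3.75% of the sequence from there to 3 Mb, and the split accounted for 66.5% of the variance between steps. On 3L they covered 13.8% of the last 1600 kb and 2.50% beyond, with 64.3% of the variance. On 3R the split isolated the last 100 kb (12.6% against 3.76%, with 25.7% of the variance), and on X it lay outside the window, at 2700 kb, with 4.05% towards the end and 9.04% away. On 3L all 15 steps of the last 1500 kb but 1, at 300 to 400 kb, had at least 7.78% of such bases, and on 2L all 9 steps of the last 900 kb had at least 8.55%. Using only series-wide regions of 1301 bp or more, the narrowest width in the replicate lists, left the 2L split at 900 kb and put the 3L split at 1700 kb. This measure was chosen after the cover profiles were seen, and the position of a split that is fitted to the profile is a description.

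**Figure D3:**
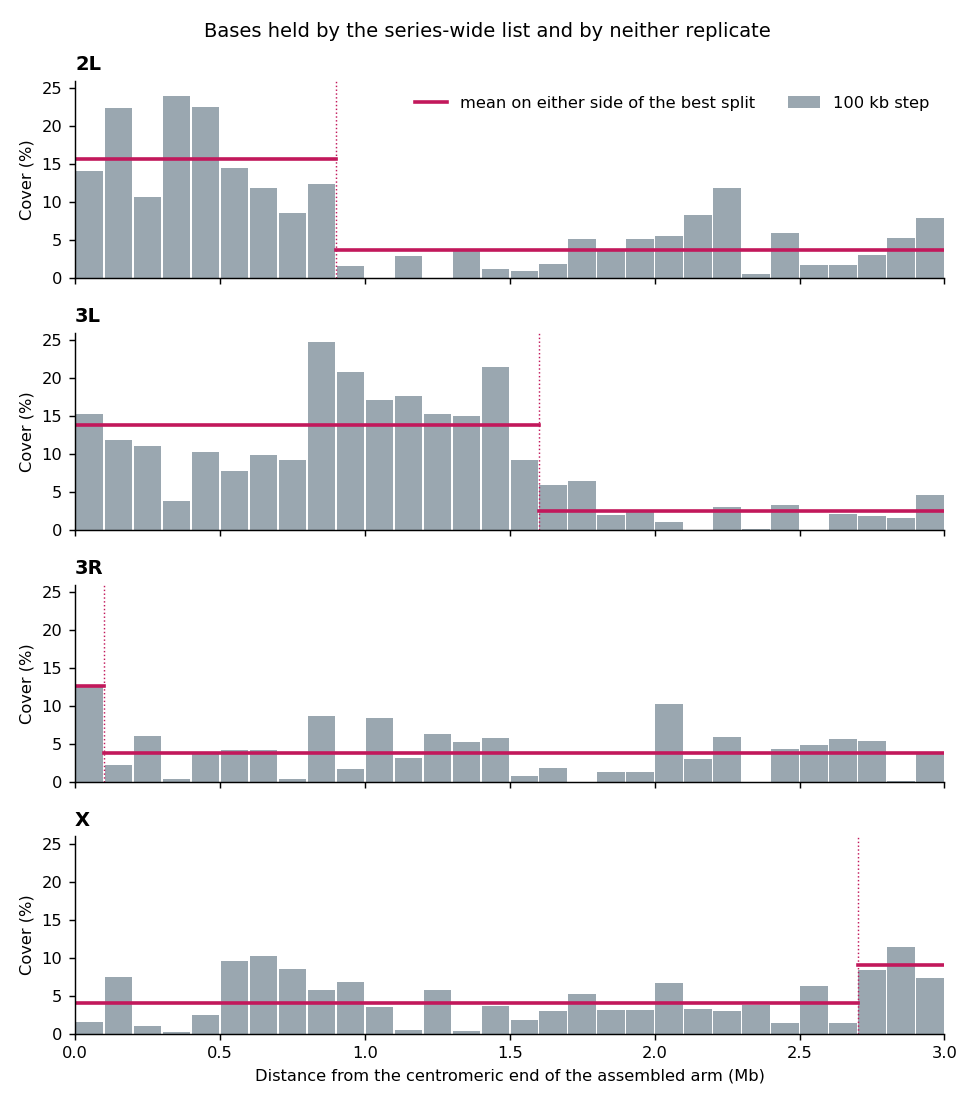
Percent of bases in series-wide regions outside the regions of both replicates (y axis, bars, 100 kb steps) against distance from the centromeric end in Mb (x axis). Horizontal lines give the mean on either side of the best split of the last 3 Mb, which falls at 900 kb on 2L, 1600 kb on 3L, 2700 kb on X and 100 kb on 3R.

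The lists agreed less at the centromeric ends of 2L, 3L and X than in any other 2 Mb window of those arms, and 3R lay within its range. The Jaccard index of the replicates, the bases in both divided by the bases in either, was 0.317 in the 3L window, against 0.604 to 0.702 in the other 11. It was 0.508 on 2L, against 0.612 to 0.760, and 0.570 on X, against 0.593 to 0.733. On 3R it was 0.676, against 0.625 to 0.738. Replicate 1 covered more than replicate 2 throughout, and the ratio was widest in the same 3 windows, with 1.84 on 3L (others 1.11 to 1.26), 1.38 on 2L (others 1.04 to 1.32) and 1.37 on X (others 1.09 to 1.27). On 3R it was 1.12, in the range of 1.06 to 1.20.

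**Figure D4:**
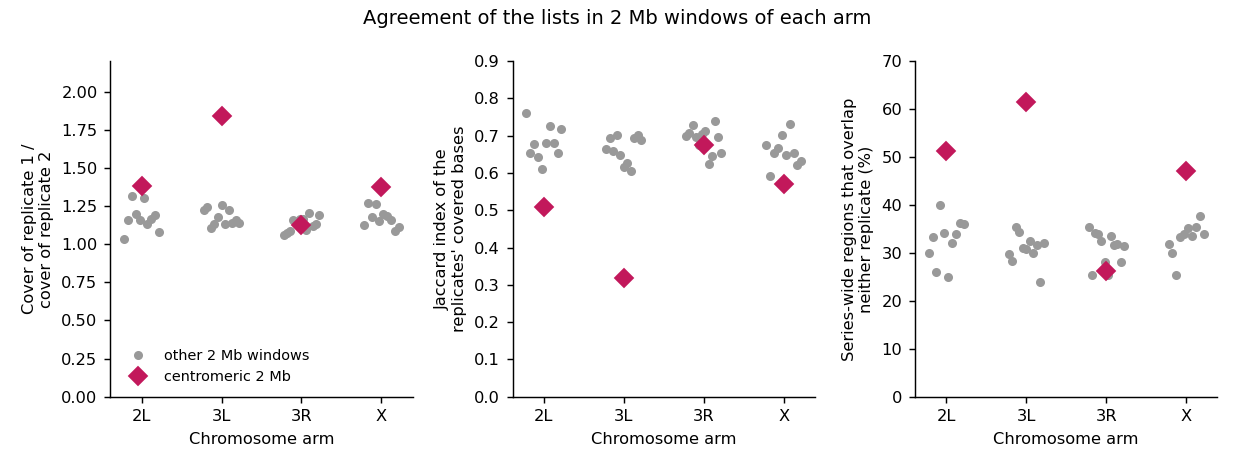
Ratio of replicate 1 to replicate 2 cover, Jaccard index of the replicates' covered bases, and percent of series-wide regions that overlap neither replicate (y axes) in whole 2 Mb windows of each arm (x axis). Diamonds are the centromeric windows and dots the other 10 to 12 windows of the arm; the diamonds of 2L, 3L and X lie outside the dots in each plot and that of 3R lies among them.

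Series-wide regions found in neither replicate were most frequent on the same arms. Of the 632 members, 175 overlapped regions of both replicates (27.7%), 109 overlapped replicate 1 alone, 43 replicate 2 alone and 305 neither (48.3%, 95% Wilson interval 44.4 to 52.2%). In the rest of the 4 arms 48.5% of 5748 regions overlapped both and 31.9% neither (interval 30.7 to 33.1%). Among regions of at least 1301 bp, the narrowest width in the replicate lists, the shares in neither were 32.5% of 468 members and 19.1% of the rest. Of the 305 members in neither, 153 were narrower than that (50.2%), as were 919 of 1831 such regions of the rest (50.2%). By arm, the share in neither was 61.4% on 3L (132 of 215), 51.2% on 2L (86 of 168), 47.1% on X (49 of 104) and 26.2% on 3R (38 of 145). The other windows of the same arms ran from 23.9 to 35.4% on 3L, 25.0 to 40.0% on 2L, 25.3 to 37.7% on X and 25.3 to 35.5% on 3R. On 3L and 2L the share was highest in the 500 kb next to the end, with 75.6% of 41 regions and 67.6% of 74. The intervals of these blocks are wide, 60.7 to 86.2% and 56.3 to 77.1%. On X and 3R it was instead highest at 500 to 1000 kb, with 59.5% of 42 and 40.7% of 27 regions, against 46.7% of 15 and 25.6% of 43 in the last 500 kb. On the scaffolds the shares were 63.6% of 225 regions on 3LHet, 73.3% of 30 on 2LHet, 72.2% of 18 on XHet and 71.4% of 133 on 3RHet. By 500 kb blocks, the change on 3R again fell between the assembled end and the scaffold. Its last 100 kb did hold more bases of the series-wide list alone, 12.6% against 3.76% from there to 3 Mb. The Wilson intervals take each region as independent of the next, so they cover only counting error.

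Members recurred less often between the replicates. Of the 292 replicate 1 members, 60.3% overlapped a replicate 2 region (95% Wilson interval 54.6 to 65.7%), against 77.8% of 3650 regions in the rest of the arms. Of the 231 replicate 2 members, 78.4% overlapped a replicate 1 region (interval 72.6 to 83.2%), against 87.9% of 3293. Both shares count largely the same overlaps. The 3L window was lowest, with 34.7% of 75 in replicate 1 and 62.2% of 45 in replicate 2. The 3R window was highest and close to the rest of its arm, with 81.6% of 98 (rest 79.8%) and 86.8% of 91 (rest 87.5%). Without 3L the replicate 1 share was 69.1%, and without 3R it was 49.5%.

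Members of like score were found again less often over the 4 arms pooled, though not on every arm. In the highest-scoring quartile of the replicate 1 list 97.1% of 69 members were found again, against 99.9% of 961 regions elsewhere on the arms. In the next quartile the shares were 76.7% of 60 members (interval 64.6 to 85.6%) and 94.4% of 936 regions (92.8 to 95.7%), and in the one below 37.0% of 92 (27.8 to 47.2%) and 63.9% of 870 (60.7 to 67.0%). In the lowest quartile they were 40.8% of 71 and 49.8% of 883, with overlapping intervals. The same middle quartiles of replicate 2 gave 83.6% of 55 members against 92.5% of 829 regions, and 68.8% of 64 against 81.5% of 800, but their intervals touch (71.7 to 91.1 and 90.5 to 94.1%, and 56.6 to 78.8 and 78.7 to 84.0%). The arms differed: on 3R all 25 members of the third quartile of replicate 1 were found again, against 96.5% of the rest of that arm, while on 3L 5 of 12 were, against 96.9%. In replicate 2 all 17 members of this quartile on 2L were found again (rest 97.2%), as were 7 of 8 in the second quartile on X (rest 80.8%). From lowest to highest, the 4 quartiles held 24.3, 31.5, 20.5 and 23.6% of the replicate 1 members, against 24.2, 23.8, 25.6 and 26.3% of the rest. On 3L they held 20, 30, 12 and 13 of the 75 members. Regions found in both were ranked alike by score in the window and elsewhere, with a Spearman rho of 0.872 over 176 overlapping pairs and 0.841 over 2840. These pairs share their libraries.

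**Figure D5:**
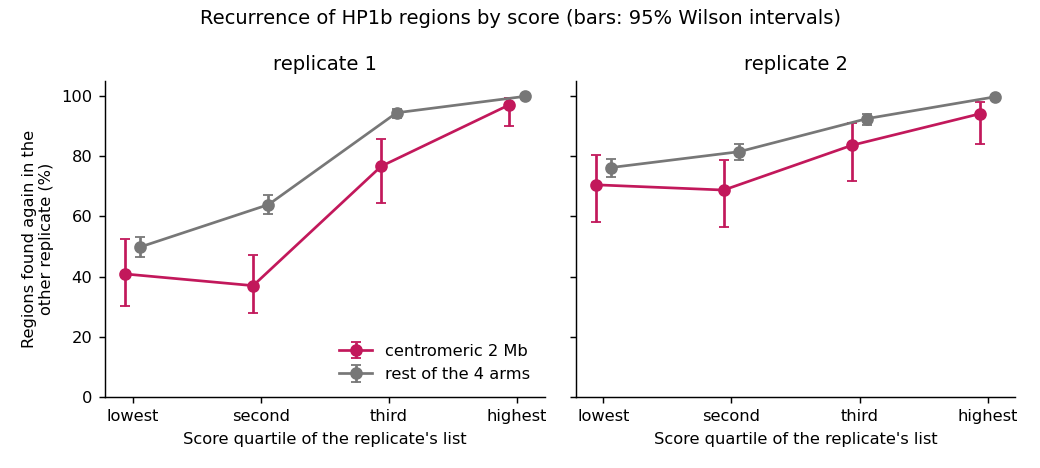
Percent of replicate regions that overlap a region of the other replicate (y axis) by score quartile of the replicate's whole list (x axis), for the centromeric 2 Mb of the 4 arms and for the rest of these arms; bars are 95% Wilson intervals. In replicate 1 the members of the 2 middle quartiles lie below the rest, at 37.0 and 76.7% against 63.9 and 94.4%.

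In the series-wide list the members on 2L, 3L and X were narrower by their medians than other regions. The median width of all members was 1891 bp, against 2087 bp in the rest of the arms, and their median score, the authors' own value, for which no definition was found, was 0.435 against 0.465. In the replicates the median widths were 2122 and 2082 bp against 2200 and 2137 bp. Split by overlap over the 4 arms, series-wide medians were 2791 bp for members in both replicates, against 2581 bp in the rest. For regions in 1 replicate they were 2013 and 1927 bp, and for those in neither 1293 and 1297 bp. Members were thus not narrower among regions in both, and more of them were in neither (48.3 against 31.9%). Among whole 2 Mb windows the centromeric one had the narrowest series-wide median of its arm on 2L (1855 bp, others 1865 to 2247 bp), 3L (1611 bp, others 1974 to 2248 bp) and X (1768 bp, others 1961 to 2291 bp). On 3R it ranked 2 of 13, with 2211 bp. The median score was the lowest of the arm on X (0.486, others 0.490 to 0.545) and lay within the range of the other windows on 2L, 3L and 3R. Broad regions of 5 kb or more numbered 16 of 632 members (2.53%), against 224 of 5748 (3.90%). By arm the shares were 2.98% on 2L (rest 2.73%), 2.79% on 3L (3.07%), 1.38% on 3R (2.91%) and 2.88% on X (6.40%). Among series-wide regions in both replicates the pooled order reversed, with 15 of 175 members (8.57%) and 221 of 2786 in the rest (7.93%). Members had the higher share on 2L (12.5 against 5.54%) and 3L (18.5 against 6.22%), with 5 broad members each. They had the lower share on 3R (2.56 against 5.70%) and X (10 against 13.6%). The members on 2L and 3L were closely spaced in the series-wide list, with median gaps of 3651 and 3426 bp against 6375 and 6246 bp in the rest of those arms. The replicate lists differed. On 2L their median gaps were wider than in the rest, at 13504 against 9340 bp in replicate 1 and 20832 against 9659 bp in replicate 2. On 3L they were 7941.5 against 9701.5 bp in replicate 1 and 19708 against 10913 bp in replicate 2. On X the median series-wide gap was 4519 bp against 4318 bp, although the window held fewer regions per Mb, and 10 of its gaps were longer than 50 kb. The Spearman rho of width and score was 0.062 over the 215 members on 3L, against 0.666 over 1399 regions of the rest of the arm. It was 0.387 against 0.663 on 2L, 0.366 against 0.650 on X and 0.674 against 0.693 on 3R. These are series-wide values, and the replicate lists differed. On 3L rho was 0.530 against 0.781 in replicate 1 and 0.514 against 0.790 in replicate 2. On 2L it was 0.709 against 0.812 and 0.747 against 0.777. On X it was 0.787 against 0.771 in replicate 1 and 0.572 against 0.741 in replicate 2. On 3R rho was higher in the members than in the rest in each replicate. Regions of a list share its libraries.

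Several of the strongest series-wide members were narrow and in neither replicate. Of the 49 members in the top 10% of the series-wide scores (scores of at least 1.10), 10 overlapped no replicate region (20.4%, 95% Wilson interval 11.5 to 33.6%). In the rest of the arms the count was 21 of 591 (3.55%, interval 2.34 to 5.37%), and on the 4 scaffolds 14 of 19. Of the 10, 5 were on 3L, 4 on X, 1 on 2L and none on 3R, and 9 were narrower than the 1301 bp of the narrowest replicate region. That narrow, too, were 19 of the 21 in the rest of the arms and 12 of the 14 on the scaffolds. The highest-scoring member of all, on 2L at 22230548 to 22231566 (1019 bp, score 2.97), was narrow and in neither replicate. So were the first and the third of X, at 21546302 to 21547472 (1171 bp, score 2.39) and 21803606 to 21804646 (1041 bp, score 1.54). The replicate lists hold no region narrower than 1301 bp, so absence from them does not show that a replicate lacked enrichment there.

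The strongest members that both replicates held were 2463 to 3881 bp wide, around the median of 2791 bp of all members in both. On X the region at 20986856 to 20989318 scored 2.24 in the series-wide list, 2.34 in replicate 1 (rank 12 of its list) and 2.24 in replicate 2 (rank 17). On 3L the region at 22855770 to 22859650 scored 2.16, with 2.19 in replicate 1 (rank 19) and 2.19 in replicate 2 (rank 20). On 2L the region at 21793814 to 21796494 scored 2.04, with 2.15 and 1.99 in the replicates (ranks 22 and 35). These 3 lay 1435, 1686 and 1216 kb from the end of their arms, in the outer 1 Mb of the window. On 3R the first 3 lay closer to the end. The region at 951704 to 954682 scored 1.93, with 1.94 and 2.00 in the replicates, and that at 303432 to 306878 scored 1.86, with 2.07 and 1.80. The third, at 57120 to 59730, lay 58.4 kb from the end and scored 1.80, with 2.03 and 1.63.

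The remaining members named by rank were weaker. On 2L the third by score, at 21756216 to 21759012, scored 1.38 and was in both replicates. On 3L the second, at 22733530 to 22737372 (score 1.62), was in both replicates, while the third, at 23663098 to 23665610 (score 1.62), overlapped replicate 1 alone, with a score of 1.55 there. Wide members were mostly of moderate score: the widest on 3L, at 24456064 to 24463758 (7695 bp), scored 0.389 and was covered 58.3% by 2 replicate 1 regions and 57.2% by 2 replicate 2 regions. The second widest on 2L, at 21147100 to 21154738 (7639 bp, score 0.506), was covered 88.7% by replicate 1 and 17.4% by replicate 2 regions. The second widest on X, at 20902102 to 20907412 (5311 bp, score 0.906), was covered 98.1 and 54.3%, and that on 3R, at 1507862 to 1513304 (5443 bp, score 0.653), 95.6 and 95.9%. Replicate 1 thus filled the second widest members of 2L, 3L and X more than replicate 2 did, and that of 3R was filled alike.

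The 2 Mb limit is a round distance. Step cover just inside and just outside it was 12.3 and 14.1% in replicate 1 on 2L and 8.24 and 9.05% in replicate 2. On 3L it was 0 and 2.03% in replicate 1 and 0 and 1.80% in replicate 2, and on 3R 4.01 and 0% and 5.99 and 1.45%. On X it was 2.10 and 11.2% in replicate 1 and 0 and 9.09% in replicate 2, but steps further out were again sparse, with none covered at 2400 to 2500 kb in either replicate. The series-wide regions nearest to the limit on either side scored 0.436 and 0.379 on 2L, 0.467 and 0.422 on 3L, 0.199 and 0.359 on 3R and 0.489 and 0.322 on X.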

How the data were processed

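Sample titles gave the groups, 2 HP1b ChIP and 2 Input libraries; no region list of the Input libraries was used. The submitters' processing notes name Bowtie 0.12.7 for mapping. The authors deposited lists of enriched regions with other columns for start and end, on FlyBase release 5 per the file headers, and a score for each region. Not given in the sources used here are the region caller, its threshold, the meaning of the score, the treatment of reads that match several places and the making of the series-wide list. Depth per sample is unknown.

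From the lists, cover (regions clipped to each window), region counts, overlap (at least 1 bp), 2-segment least-squares splits and Wilson intervals (95%) were computed in Python (3.11.15) with pandas (2.3.3), scipy (1.17.1) and numpy (2.4.6) and drawn with matplotlib (3.10.9). Cover, membership, overlap and splits were checked on simulated regions. Windows were counted from the assembled end. Assembly gaps were not removed. Regions named are, for each arm, the 3 highest by score, the 2 widest, the one nearest to the end, the longest empty stretch and those beside the 2 Mb limit. The members, lists and alternatives were chosen with earlier results of these data known. Alternatives were windows of 1 and 3 Mb, steps of 50 and 200 kb, spans of 2 and 4 Mb, other lists, score and width limits, a 50% overlap, assignment by midpoint and leaving out each replicate or arm. A gene table of release 6 was not used, since its coordinates do not apply, and no sequences were printed.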

Additional observations from a re-analysis of the deposited data

How the results depend on the processing

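Of 138 recomputed values, 74 stayed within the spread, 57 moved and 7 changed sign. The spread was the SD of the replicate values for differences and split positions, and the Wilson interval for shares. Leaving out 1 replicate moves a mean of 2 by less than their SD. Those values for cover and regions per Mb could thus only stay or change sign. Assignment by midpoint gave the same cover differences as clipping. These counts therefore do not measure robustness. The cause of the changes was not tested. The cover difference between the window and the rest of 2L (-0.175 points) changed sign with a window of 1 Mb (0.261) or 3 Mb (1.04) and in the series-wide list (5.74), and ran from -0.846 to 0.496 with 1 replicate left out. That of 3L (-2.16) changed sign in the series-wide list (7.22). That of 3R (2.12) was 0.396 with 1 Mb, 1.35 with 3 Mb, 3.00 in the series-wide list and 0.544 with the 50% highest scores. That of X (-6.52) was -7.40 with 1 Mb, -4.25 with 3 Mb, -8.69 in the series-wide list, -7.40 for series-wide regions found in both replicates and -4.89 with the 50% highest scores. In regions per Mb, the differences in the series-wide list were 26.4 on 2L and 45.4 on 3L, against -2.39 and -7.68 in the replicates, and 14.1 on 3R and -27.6 on X, against 11.5 and -26.1. For regions found in both replicates they were -8.37 on 2L, -22.2 on X, -16.4 on 3L and 9.86 on 3R.

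The split in replicate cover on 2L (2900 kb) lay at 2850 kb with 50 kb steps, 2800 kb with 200 kb steps, 600 kb in the series-wide list, 1800 kb over the last 2 Mb and 3400 kb over the last 4 Mb. On 3L (800 kb) it moved in the series-wide list, to 1500 kb. On 3R (2900 kb) it lay at 1600 kb with 200 kb steps, at 1700 kb in the series-wide list and over the last 2 or 4 Mb, and at 1700 to 2900 kb with 1 replicate left out. On X (2800 kb) it lay at 500 kb over the last 2 Mb, 2600 kb over the last 4 Mb and 2600 to 2800 kb with 1 replicate left out. For bases held by the series-wide list alone, alternatives were chosen after seeing the data. Their split on 2L (900 kb) lay at 600 kb with 200 kb steps and at 600 to 900 kb with 1 replicate left out. On 3L (1600 kb) it lay at 1550 kb with 50 kb steps, 1500 kb over the last 2 Mb and 1700 kb for regions of at least 1301 bp. On 3R (100 kb) it lay at 50 kb with 50 kb steps and 200 kb with 200 kb steps, and on X (2700 kb) at 2800 kb with 200 kb steps and 1000 kb over the last 2 Mb.

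The share of replicate 1 members found again (60.3%) was 69.0% with the 50% highest scores, 69.1% without 3L and 49.5% without 3R, below the rest of the arms each time. The share of series-wide members in neither replicate (48.3%) was 32.5% for regions of at least 1301 bp, 41.5% without 3L and 54.8% without 3R, above the rest each time. The median width difference (-196 bp) was -78 and -55 bp in the lists of replicates 1 and 2, -98 bp for regions of at least 1301 bp, -388 bp with 1 Mb, -106 bp without 3L and -379 bp without 3R. The median score difference (-0.0303) was -0.0526 and -0.0492 in the lists of replicates 1 and 2, -0.0585 for regions of at least 1301 bp, -0.0412 with 1 Mb, -0.0266 without 3L, -0.0404 without 3R and -0.0140 without X.

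No paired analysis was possible because the Input libraries have no region list here and no test was run. With 2 replicates, an SD is itself imprecise. The lists give no counts, so a region missing from a list cannot be told from one just under the caller's threshold. Depth is unknown, and the share of repeats and assembly gaps near the ends was not measured here.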
